A study of Mus musculus with 24 samples.

Results

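The difference between the liver's response to di(2-ethylhexyl) phthalate (DEHP) at 2 h and at 72 h is described here gene by gene. For each gene the difference between DEHP and corn oil arrays at 72 h was set against the same difference at 2 h, and the difference of these differences is called the interaction below. It used 12 of the 24 arrays of the study, 3 for each group of compound and time, and the spread of each gene was estimated from all 24. Of 18194 genes, each represented by 1 probe set, 425 had an interaction past an adjusted p of 0.05 with limma, and in 385 of these the DEHP effect had opposite signs at the 2 times.

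The animals were male B6C3F1 mice, a hybrid laboratory strain, aged 7 to 10 weeks when they arrived and given at least 5 days to settle. The first group received DEHP at 1150 mg/kg/day and was killed at 72 h, and its controls received the corn oil vehicle and were killed at 72 h. The other group received DEHP at 1150 mg/kg and was killed at 2 h, and its controls received corn oil and were killed at 2 h. All mice were gavaged with 10 ml per kg of body weight, and the design text gives a dose every 24 h for 3 days. The number of doses before killing may thus differ between the 2 h and 72 h groups, and time cannot be told apart from it. The clock time of killing, the time from the last gavage and the animals behind each array are not given in the sources used here (the design text names 6 mice), so p-values measure the spread between these arrays, which may be technical. Values are log2 signals of an Affymetrix array, where a difference of 1 is a factor of 2 in signal, and precision is limited by the 3 arrays of a group.

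DEHP is a plasticizer and a peroxisome proliferator. Its metabolites activate PPARα, a nuclear receptor that pairs with RXR on DNA and drives genes of fatty acid uptake, peroxisomal and mitochondrial oxidation and omega-hydroxylation in rodent liver. Rodent hepatocytes exposed for days to such compounds enlarge and replicate, and acute phase genes of the liver are known to respond to inflammation and to be repressed by PPARα agonists.

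Some arrays stood apart and touch the results that follow. The 12 arrays were all liver by their leading signals, with albumin (Alb), Apoa1 and Ttr among the brightest probe sets. Summed signals of 19 exocrine pancreas markers ranged from 2784 to 9527 in DEHP livers at 72 h, against 3505 to 11908 in corn oil livers, and from 3501 to 25589 in DEHP livers at 2 h, against 3252 to 11123 in corn oil livers. The highest sums, in falling order, belonged to array 1 of DEHP 2 h, array 1 of corn oil 72 h, array 2 of corn oil 2 h and array 1 of DEHP 72 h (arrays are numbered by the replicate in the labels). None of the 19 markers was called in the interaction. Array 1 of corn oil 72 h also had the highest mean of the immediate-early genes, 1.00 above their average over 24 arrays, and acute phase genes 1.00 above theirs. Arrays 1 and 3 of DEHP 2 h had acute phase genes 1.04 and 0.76 above the average, and array 2 only 0.02. Without array 1 of corn oil 72 h and array 1 of DEHP 2 h together, 181 genes were called and 163 had opposite signs, and 138 of these were among the 385.

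Genes called lower at 72 h than at 2 h outnumbered those called higher. The interaction was negative in 316 genes (1.74% of all genes tested) and positive in 109 (0.599%), together 2.34%, and 3023 genes had an unadjusted p under 0.05. The median interaction over all genes was -0.01, and the DEHP effect was positive in 42.3% of all genes at 72 h and in 43.2% at 2 h. After quantile normalization of the same values the calls were 198 higher and 235 lower, so the predominance of lower calls was small under that scaling. Of the 385 genes with opposite signs, which are 2.12% of all genes, 287 (1.58%) were lower in DEHP livers than in corn oil livers at 72 h and higher at 2 h, and 98 (0.539%) were higher at 72 h and lower at 2 h. Opposite signs were found in 51.6% of all genes and in 90.6% of those called, a share that choosing genes by the size of the difference favours. The remaining 40 called genes kept their sign: 24 were positive at both times, 9 of them larger at 72 h, and 16 were negative at both times, 14 of them further from 0 at 72 h.

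**Figure D1:**
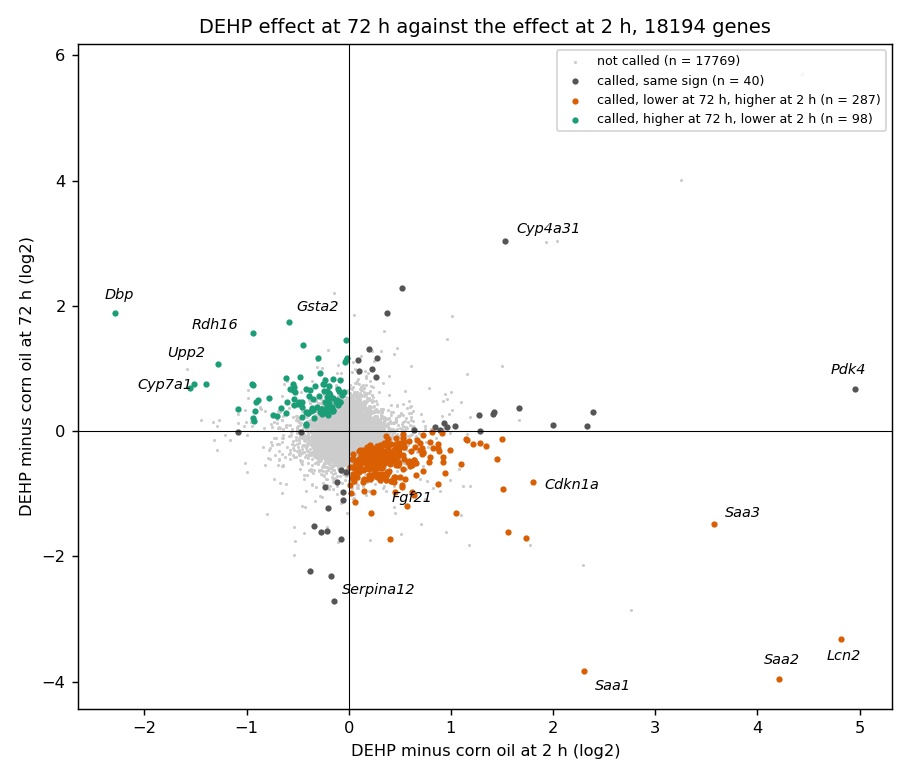
DEHP effect at 72 h (vertical axis, log2) against the effect at 2 h (horizontal axis, log2) for 18194 genes, coloured by whether the interaction was called and whether the signs differ. The 287 genes lower at 72 h and higher at 2 h fill the lower right, where Saa1, Saa2 and Lcn2 lie farthest out, and the 98 genes higher at 72 h and lower at 2 h fill the upper left, with Dbp at the edge.

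The calls end among genes with modest effects. The genes just past the threshold were Zcchc9, with an interaction of -0.69 ± 0.18 (SE, adjusted p = 0.0498), and Prxl2a, with 0.60 ± 0.16 (SE, adjusted p = 0.0499). Just short of it were Ehhadh, a peroxisomal bifunctional enzyme with an interaction of 1.09, and Btla with 0.63, both with an adjusted p that rounds to 0.05. Ehhadh did not reverse: its effect was 3.02 at 72 h and 1.93 at 2 h.

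How firmly a gene's sign was set at each time differed widely. An unadjusted p under 0.05 at both times was met by 200 of the 385 genes, effects of at least 0.5 at both times by 43, and an adjusted p under 0.05 at both times by 12. Among all genes the share called at 72 h was 4.18%, with 1.13% higher and 3.05% lower, and at 2 h it was 0.83%, with 0.616% higher and 0.214% lower. Only 22 genes were called at both times, and these 12 were the ones among them with opposite signs. In 119 of the 287 and 45 of the 98 genes the DEHP and corn oil arrays did not overlap at either time and lay in opposite order, which held for 388 of all genes (2.13%). Choosing genes by a large interaction with opposite signs on these same arrays favours such separation, so these counts are a description only. The 388 include the chosen genes. For 102 of the 385 genes the signs stayed opposite, with the interaction called, in all 12 fits that left out 1 array, 75 of the first direction and 27 of the second.

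The 12 genes called at both times with opposite signs are described first. Of the 8 that were lower at 72 h and higher at 2 h, Saa2, which encodes an acute phase serum amyloid A apolipoprotein, had the largest change. Its log2 signals were 7.75, 7.57 and 8.01 with DEHP at 72 h, against 14.26, 10.73 and 10.20 with corn oil. At 2 h Saa2 measured 14.41, 11.89 and 14.15 with DEHP, against 9.22, 8.50 and 10.11 with corn oil. The DEHP arrays lay below every corn oil array at 72 h and above every one at 2 h. The effect was -3.95 at 72 h (adjusted p = 0.0225) and 4.21 at 2 h (adjusted p = 0.0344), and the interaction was -8.16 ± 1.35 (SE, adjusted p = 0.00205). Without array 1 of corn oil 72 h the effect of DEHP on Saa2 at 72 h was -2.68 with an adjusted p of 0.0777, and without array 1 of DEHP 2 h that at 2 h was 3.75 with an adjusted p of 0.241.

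Cdkn1a, which encodes the cell cycle inhibitor p21, was next. It measured 9.0, 8.22 and 8.04 with DEHP at 72 h, against 8.93, 9.54 and 9.22 with corn oil. At 2 h Cdkn1a measured 11.59, 11.09 and 11.26 with DEHP, against 9.82, 9.56 and 9.14 with corn oil. The arrays separated fully at 2 h, while at 72 h the highest DEHP array lay above the lowest corn oil array. The effect of DEHP on Cdkn1a was -0.81 at 72 h (adjusted p = 0.0328) and 1.81 at 2 h (adjusted p = 3.35e-05), with an interaction of -2.61 ± 0.30 (SE, adjusted p = 6.87e-05). The interaction was called in every fit that left out 1 array, at -2.90 to -2.43.

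Tgoln1, a protein of the trans-Golgi network, measured 10.27, 10.32 and 10.18 with DEHP at 72 h, against 10.48, 10.73 and 10.77 with corn oil. At 2 h Tgoln1 measured 11.08, 11.09 and 11.21 with DEHP, against 10.29, 10.59 and 10.10 with corn oil. No DEHP array overlapped a corn oil array at either time, and the interaction was -1.20 ± 0.16 (SE, adjusted p = 0.000445). Slc45a3, a solute carrier, measured 9.28, 8.59 and 8.63 with DEHP at 72 h, against 9.21, 9.64 and 9.75 with corn oil. At 2 h Slc45a3 measured 10.31, 9.96 and 10.00 with DEHP, against 9.38, 9.51 and 9.40 with corn oil. Its arrays overlapped at 72 h, and its effect was -0.70 at 72 h (adjusted p = 0.0117) and 0.66 at 2 h (adjusted p = 0.0359).

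The other 4 genes of this direction separated the arrays fully at both times. Rai14, an actin-binding ankyrin repeat protein, had effects of -0.50 at 72 h (adjusted p = 0.0456) and 0.66 at 2 h (adjusted p = 0.0244). Cfb, complement factor B of the alternative pathway, had effects of -0.48 at 72 h (adjusted p = 0.0119) and 0.46 at 2 h (adjusted p = 0.0356). Tecpr2, a protein linked to autophagy, had effects of -0.46 at 72 h (adjusted p = 0.0181) and 0.46 at 2 h (adjusted p = 0.0356), and Lnx2, an E3 ubiquitin ligase, -0.42 at 72 h (adjusted p = 0.00341) and 0.33 at 2 h (adjusted p = 0.0356). Each of these effects was below 1 on the log2 scale.

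The opposite direction had 4 genes called at both times. Upp2, uridine phosphorylase 2 of pyrimidine breakdown, measured 11.55, 11.78 and 11.98 with DEHP at 72 h, against 10.93, 10.45 and 10.73 with corn oil. At 2 h Upp2 measured 9.70, 10.99 and 10.24 with DEHP, against 11.59, 11.07 and 12.10 with corn oil. The DEHP arrays lay above the corn oil arrays at 72 h and below them at 2 h, without overlap. Its effect was 1.07 at 72 h (adjusted p = 0.0413) and -1.28 at 2 h (adjusted p = 0.0356), and its interaction was 2.34 ± 0.42 (SE, adjusted p = 0.00392).

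Tk1, the thymidine kinase of DNA precursor salvage, measured 9.29, 8.89 and 8.96 with DEHP at 72 h, against 8.43, 8.63 and 8.69 with corn oil. At 2 h Tk1 measured 8.05, 7.72 and 8.06 with DEHP, against 8.43, 8.34 and 8.51 with corn oil. Again no arrays overlapped, and the effect was 0.46 at 72 h (adjusted p = 0.0165) and -0.48 at 2 h (adjusted p = 0.0278). Fam13a measured 8.82, 8.77 and 9.02 with DEHP at 72 h, against 8.00, 8.24 and 8.27 with corn oil. At 2 h Fam13a measured 7.88, 7.70 and 8.05 with DEHP, against 8.43, 8.23 and 8.57 with corn oil. It too separated at both times, with an interaction of 1.23 ± 0.18 (SE, adjusted p = 0.00066). The clone-named D130043K22Rik, named here after its values were seen, had effects of 0.74 at 72 h (adjusted p = 0.0294) and -0.94 at 2 h (adjusted p = 0.0143).

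**Figure D2:**
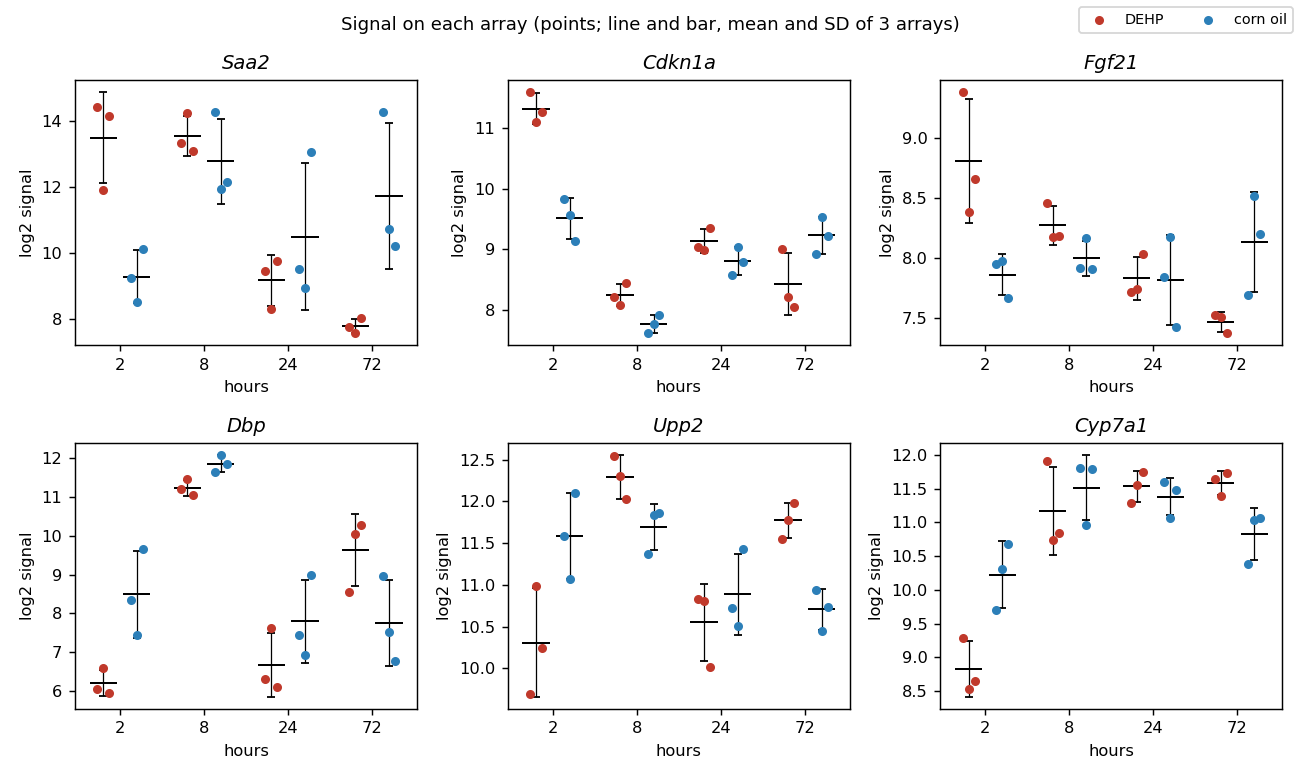
Log2 signal of 6 genes on every array at 2, 8, 24 and 72 h (points; black line and bar, mean and SD of 3 arrays), with DEHP left of corn oil at each time. Saa2, Cdkn1a and Fgf21 lie higher on the DEHP arrays at 2 h and have lower DEHP means at 72 h, and Dbp, Upp2 and Cyp7a1 show the reverse; the corn oil arrays of Saa2 at 72 h are spread from 10.20 to 14.26.

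Being called at both times depended on single arrays. Leaving out 1 array at a time, the number of genes with opposite signs called at both times ranged from 2 (without array 3 of corn oil 2 h) to 21 (without array 1 of corn oil 72 h). The interactions of the 11 genes with a gene name were nevertheless called in all 12 such fits, and their effects kept opposite signs in each. They were also called without array 1 of corn oil 72 h and array 1 of DEHP 2 h together.

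The sign of the DEHP effect can change because the DEHP livers moved, because the corn oil livers moved, or both, so the change from 2 h to 72 h was taken within each compound. In 235 of the 287 genes that were lower at 72 h and higher at 2 h, the DEHP arrays moved further than the corn oil arrays, and in 83 of the 98 genes of the opposite direction (52.9% of all genes). The median change from 2 h to 72 h was -0.56 in DEHP livers and 0.24 in corn oil livers for the 287 genes, and 0.79 in DEHP livers and -0.13 in corn oil livers for the 98. Cdkn1a moved by -2.90 in DEHP livers and by -0.28 in corn oil livers. Nr1d1, a clock repressor, was one where the controls moved: 0.09 in DEHP livers and -1.06 in corn oil livers. Jun, a subunit of the AP-1 factor, moved about equally in opposite directions, by -1.25 in DEHP livers and 1.19 in corn oil livers. The corn oil change of Jun was smaller without array 1 of corn oil 72 h. Its effect at 72 h was then -0.38 (adjusted p = 0.479) in place of -0.92.

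**Figure D3:**
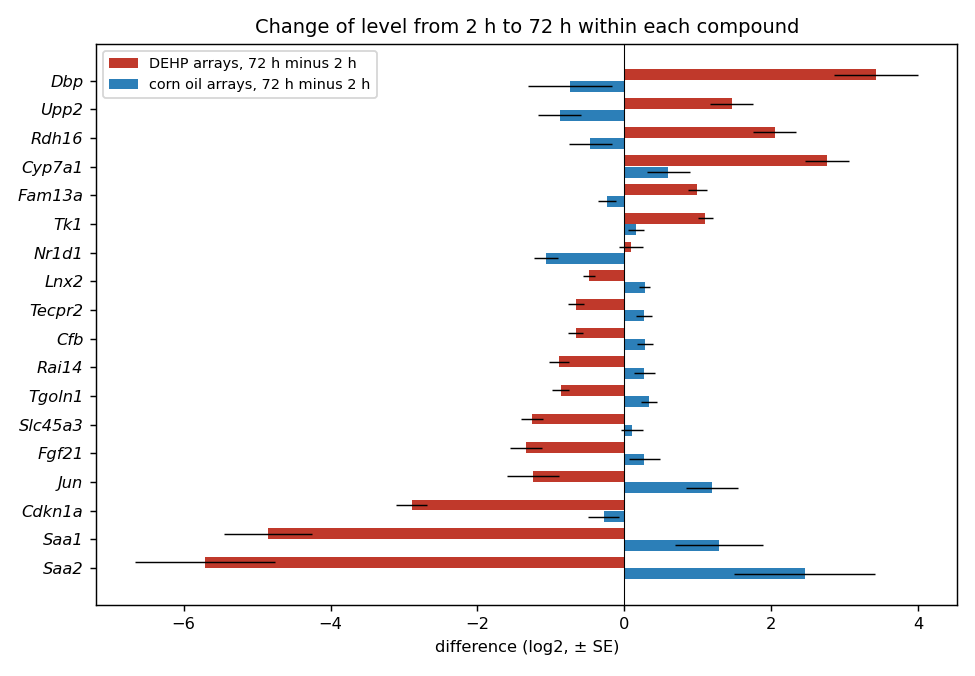
Change of log2 signal from 2 h to 72 h within DEHP arrays (red) and within corn oil arrays (blue) for 18 genes with opposite signs; bars start at 0 and error bars are standard errors of the fit. The red bar is the longer one for most genes, such as Cdkn1a with -2.90 in DEHP livers and -0.28 in corn oil livers, and the blue bar for Nr1d1, with 0.09 in DEHP livers and -1.06 in corn oil livers.

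The DEHP effects at 8 h and 24 h were not used to choose the genes, though those arrays entered the estimate of the spread and the choice of probe set. With the 12 arrays of 2 h and 72 h alone, 354 genes were called with opposite signs, 271 of them among the 385. Of the 287 genes, 136 had a positive DEHP effect at 8 h and 90 at 24 h, which is 47.4% and 31.4%, against 42.6% and 48.9% of all genes. Of the 98 genes of the opposite direction, 41 were positive at 8 h and 77 at 24 h, which is 41.8% and 78.6%. The median effect over the 287 genes was 0.33 at 2 h, -0.01 at 8 h, -0.07 at 24 h and -0.45 at 72 h, and over the 98 genes -0.34, -0.03, 0.15 and 0.50 at the same times. At 24 h the signs were thus mostly those of 72 h, with small values: 1 of the 287 genes was called higher and 1 lower at 24 h, and 3 of the 98 were called higher and none lower. Among all genes the share called at 24 h was 0.297%, with 0.253% higher and 0.044% lower. At 8 h, where 4.13% of all genes passed the test (1.28% higher and 2.86% lower), 17 of the 287 were called higher and 13 lower, and 3 of the 98 higher and 4 lower.

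**Figure D4:**
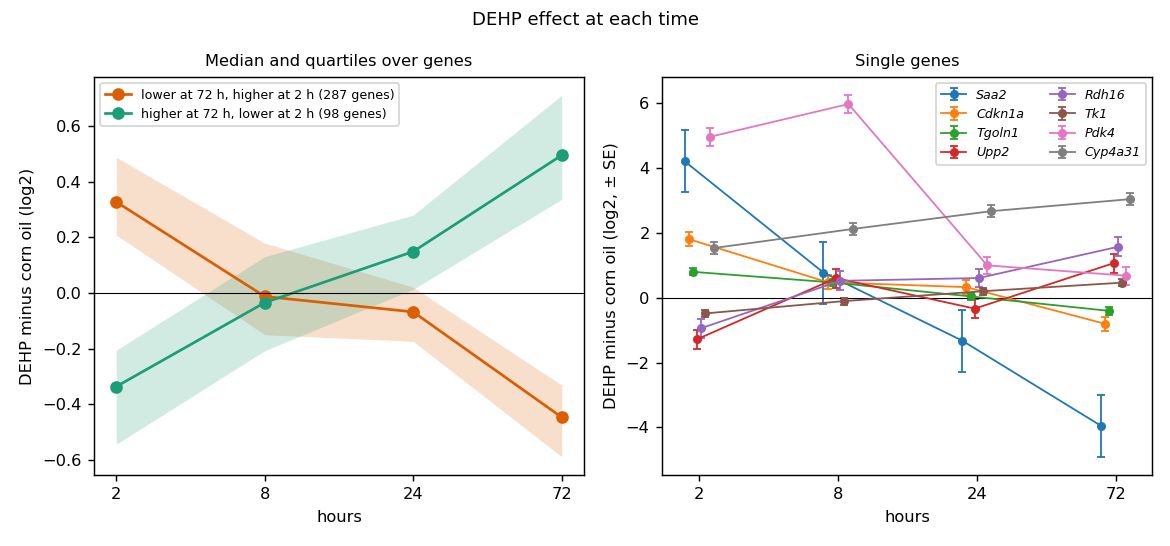
DEHP minus corn oil (log2) at 2, 8, 24 and 72 h; left, median (line) and quartiles (band) over the 287 and the 98 genes; right, 8 single genes with standard errors. The medians of both sets lie near 0 at 8 h and 24 h and have opposite signs at the outer times, which is how the genes were chosen; Pdk4 and Cyp4a31 are positive at all 4 times.

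Acute phase genes, which code for plasma proteins that the liver secretes in inflammation, had the most negative median interaction of the 43 lists used here. Of 28 measured, 7 were called lower at 72 h than at 2 h and none higher, against 1.74% and 0.599% of all genes. The 7 were Saa1, Saa2, Saa3, Lcn2, Lbp, Apcs and Itih4. The median interaction of the 28 was -0.74, with a median effect of -0.44 at 72 h and 0.34 at 2 h, against -0.03 and -0.02 for all genes. Relative to the average of 24 arrays, the mean of the list was -0.64, -0.66 and -0.60 in DEHP livers at 72 h, against 1.00, -0.12 and -0.15 in corn oil livers, and 1.04, 0.02 and 0.76 in DEHP livers at 2 h, against -0.38, -0.39 and -0.08 in corn oil livers. The groups did not overlap at either time. Over the 12 fits without 1 array, Lbp and Apcs were each called with opposite signs in 3 and Itih4 in 11.

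Saa1 measured 8.88, 8.34 and 8.81 with DEHP at 72 h, against 13.86, 12 and 11.69 with corn oil. At 2 h Saa1 measured 13.85, 12.99 and 13.75 with DEHP, against 10.99, 10.45 and 12.25 with corn oil. Every DEHP array was below every corn oil array at 72 h and above every one at 2 h. The effect of DEHP on Saa1 was -3.84 at 72 h (adjusted p = 0.000747) and 2.30 at 2 h (adjusted p = 0.0766), and the interaction was -6.14 ± 0.84 (SE, adjusted p = 0.000496). Lcn2, a siderophore-binding protein, measured 6.23, 6.40 and 6.13 with DEHP at 72 h, against 13.28, 7.88 and 7.54 with corn oil. At 2 h Lcn2 measured 13.61, 8.23 and 12.68 with DEHP, against 6.22, 6.92 and 6.92 with corn oil. Its signal was high on 2 DEHP arrays at 2 h and on 1 corn oil array at 72 h, the interaction was -8.13 ± 2.10 (SE, adjusted p = 0.041), and the call was lost in 9 of the 12 fits without 1 array. Saa3 had an interaction of -5.07 ± 1.28 (SE, adjusted p = 0.0364) and was likewise lost in 9 of 12. Without array 1 of corn oil 72 h and array 1 of DEHP 2 h together, the interactions of Saa1 and Saa2 were -5.31 (adjusted p = 0.00422) and -6.43 (adjusted p = 0.0148), and those of Saa3 and Lcn2 were -3.24 (adjusted p = 0.207) and -5.23 (adjusted p = 0.215). Lcn2 is also a neutrophil granule gene, so the other 11 neutrophil markers were summed: 1541 to 1642 in DEHP livers at 72 h, against 1473 to 1981 in corn oil livers, and 1636 to 1747 in DEHP livers at 2 h, against 1595 to 1655 in corn oil livers. None of these 11 was called in the interaction. S100a8 and S100a9 among them had negative interactions like Lcn2, -1.83 (adjusted p = 0.182) and -0.96 (adjusted p = 0.312), while 6 of the 12 markers had positive ones. Relative to the average of 24 arrays, the mean of the 11 was 0.37 on array 1 of corn oil 72 h, against -0.11 and -0.14 on arrays 2 and 3. The part of neutrophils in the result was not tested.

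Saa1 and Saa2 lie next to each other on chromosome 7 in opposite orientation and are near-identical copies, so a probe set of one may also detect the other, and their values are not independent. The 250 bases before their starts are shown because the pair moved together and because the windows themselves are close copies, 94.8% identical over 251 aligned positions, against 48.5% between Saa1 and Saa3. Capitals mark matches to TTGCNNAA, a pattern of C/EBP factors that was chosen after the sequences were seen; sequences here and below are from RefSeq (GRCm38.p6), 5′ to 3′ on the strand of the gene.
Saa1 promoter, chr7:46742981-46743230, minus strand: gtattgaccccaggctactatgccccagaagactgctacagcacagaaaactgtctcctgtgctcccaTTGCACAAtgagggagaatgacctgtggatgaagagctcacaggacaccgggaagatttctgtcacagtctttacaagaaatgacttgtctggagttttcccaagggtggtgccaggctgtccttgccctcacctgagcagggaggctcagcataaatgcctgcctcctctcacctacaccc
Saa2 promoter, chr7:46751583-46751832, plus strand: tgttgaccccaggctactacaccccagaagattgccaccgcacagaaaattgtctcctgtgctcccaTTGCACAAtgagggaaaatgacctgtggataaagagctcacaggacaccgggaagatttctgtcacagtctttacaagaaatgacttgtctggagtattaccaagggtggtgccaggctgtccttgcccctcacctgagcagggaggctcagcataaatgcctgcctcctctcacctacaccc
The match lies 182 bases before the start of Saa1 and 183 before that of Saa2. On either strand it was found before 9.65% of all tested genes with a promoter in the table, 8.1% of the 247 such genes lower at 72 h and higher at 2 h and 13% of the 77 of the opposite direction.

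Complement and coagulation genes moved less, and mainly at 72 h. Of 28 measured, 7 were called lower at 72 h than at 2 h and none higher (1.74% and 0.599% of all genes). Their median interaction over the 28 was -0.36. Cfb was the one called at both times, and the other 6 were called at 72 h and not at 2 h: C9, of the membrane attack complex, had -0.81 at 72 h (adjusted p = 0.00061) and 0.14 at 2 h (adjusted p = 0.861), and C8b, of the same complex, -0.86 at 72 h (adjusted p = 5.65e-05) and 0.01 at 2 h (adjusted p = 0.993). C2, C8a, Cfi and F9 were the others, with interactions of -0.72, -0.90, -0.48 and -0.69; Cfi was called with opposite signs in 7 of the 12 fits without 1 array, and the rest in 9 or more. At 72 h alone 13 of the 28 were called lower in DEHP livers than in corn oil livers, and 3.05% of all genes were.

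Genes of the circadian clock, a loop in which Arntl (BMAL1) and Clock switch on repressors and output factors, were called in both directions. Of 23 measured, 6 were called higher at 72 h than at 2 h and 2 lower (0.599% and 1.74% of all genes). The 2 were the activators Arntl and Clock. All 8 had effects of opposite sign, as did 90.6% of all called genes. The list as a whole was balanced, with 12 of 23 interactions positive and a median of 0.04. Dbp, an output factor that binds D-boxes, measured 8.56, 10.05 and 10.28 with DEHP at 72 h, against 8.96, 7.52 and 6.78 with corn oil. At 2 h Dbp measured 6.06, 6.59 and 5.96 with DEHP, against 8.34, 7.45 and 9.67 with corn oil. The DEHP arrays were the 3 lowest at 2 h, and at 72 h they overlapped the corn oil arrays. The effect was 1.88 at 72 h (adjusted p = 0.0622) and -2.28 at 2 h (adjusted p = 0.0646), neither called alone, and the interaction was 4.16 ± 0.81 (SE, adjusted p = 0.00754), with 3.57 to 4.77 over the 12 fits without 1 array, in all of which it was called.

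Nr1d1, which codes for the repressor REV-ERBα, measured 8.73, 8.94 and 8.98 with DEHP at 72 h, against 8.42, 8.48 and 7.85 with corn oil. At 2 h Nr1d1 measured 8.58, 8.75 and 9.04 with DEHP, against 9.47, 9.23 and 9.25 with corn oil. The arrays did not overlap at either time, and the interaction was 1.15 ± 0.23 (SE, adjusted p = 0.0103). Tef, a relative of Dbp, Per3 and Cry2, repressors of the period and cryptochrome families, and Wee1, a kinase gene under clock control, had interactions of 0.90, 1.04, 0.51 and 0.99. Arntl had an interaction of -1.25 ± 0.28 (SE, adjusted p = 0.02) and Clock of -1.01 ± 0.21 (SE, adjusted p = 0.0142); for Arntl, 1 of its 2 probe sets had the other sign, and the mean of both was not called. Per1, another period gene, was not called (-0.18, adjusted p = 0.738). The hour of killing is not given, and its part in these values was not tested. Arntl lost the call in 6 of 12 fits without 1 array. Wee1 was called with opposite signs in 5 of these fits, Per3 in 6, Tef in 7 and Clock and Cry2 in 10.

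Promoters of the called clock genes that hold an E-box or a D-box, the sites of this loop, are shown together with that of Fgf21; Per1, which was not called, also holds an E-box, 166 bases before its start. Capitals mark the E-box CACGTG in both Tef promoters and in that of Fgf21, a hepatic hormone, and the D-box TTATGTAA in Per3.
Tef first promoter, chr15:81802423-81802672, plus strand: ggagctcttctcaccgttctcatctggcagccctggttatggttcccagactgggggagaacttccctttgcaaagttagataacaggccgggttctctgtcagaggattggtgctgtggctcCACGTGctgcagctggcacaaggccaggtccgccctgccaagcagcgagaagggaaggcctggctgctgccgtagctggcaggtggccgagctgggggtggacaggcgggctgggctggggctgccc
Tef second promoter, chr15:81811164-81811413, plus strand: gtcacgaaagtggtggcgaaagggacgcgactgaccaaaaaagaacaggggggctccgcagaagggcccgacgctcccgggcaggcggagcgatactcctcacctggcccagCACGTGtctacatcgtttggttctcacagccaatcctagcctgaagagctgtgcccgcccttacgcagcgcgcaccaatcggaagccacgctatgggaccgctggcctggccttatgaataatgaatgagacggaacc
Per3 promoter, chr4:151044666-151044915, minus strand: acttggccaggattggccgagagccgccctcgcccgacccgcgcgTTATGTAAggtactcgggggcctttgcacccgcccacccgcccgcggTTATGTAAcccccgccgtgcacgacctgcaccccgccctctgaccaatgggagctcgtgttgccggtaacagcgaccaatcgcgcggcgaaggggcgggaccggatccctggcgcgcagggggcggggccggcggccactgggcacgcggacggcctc
Fgf21 promoter, chr7:45615491-45615740, minus strand: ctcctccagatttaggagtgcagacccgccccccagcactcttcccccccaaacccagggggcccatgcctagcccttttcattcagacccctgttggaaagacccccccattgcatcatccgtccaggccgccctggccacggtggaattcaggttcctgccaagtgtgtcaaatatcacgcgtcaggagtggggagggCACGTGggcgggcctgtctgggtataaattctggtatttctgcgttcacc
The E-boxes lie 127 and 138 bases before the Tef starts and 50 before that of Fgf21, and the D-boxes 205 and 158 bases before the Per3 start. The windows of Dbp and Nr1d1 hold neither pattern. The E-box was found, on either strand, in 8.91% of the 247 genes lower at 72 h and higher at 2 h, 10.4% of the 77 of the opposite direction and 8.73% of all tested genes, and the D-box in 0.81%, 1.3% and 0.747%.

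A few DNA replication genes were called in the direction opposite to Cdkn1a. Of 37 DNA replication genes, 5 were called higher at 72 h than at 2 h and none lower (0.599% and 1.74% of all genes). They were Mcm10 and Mcm6 of the replicative helicase machinery, Cdt1 of origin licensing, Ccne2 (cyclin E2) and Tk1. All 5 had effects of opposite sign, as did 90.6% of all called genes. Those of Mcm10 were 0.46 at 72 h (adjusted p = 0.196) and -0.91 at 2 h (adjusted p = 0.0356). Those of Mcm6 were 0.81 at 72 h (adjusted p = 0.00334) and -0.08 at 2 h (adjusted p = 0.948). The call was lost for Mcm10 without array 3 of DEHP 72 h. Mcm6 lost the call in 4 of 12 fits without 1 array. Cdt1 was called with opposite signs in 1 of these 12 fits and Ccne2 in 2. The median interaction of the 37 was 0.23, and 34 were positive. Under median centring 3 of the 37 were called. Spc24, a kinetochore protein, measured 9.34, 8.82 and 8.71 with DEHP at 72 h, against 7.88, 8.40 and 8.35 with corn oil. At 2 h Spc24 measured 7.5, 7.78 and 7.69 with DEHP, against 8.07, 8.24 and 8.30 with corn oil. Its groups were apart at both times, and its interaction was 1.29 ± 0.23 (SE, adjusted p = 0.00423).

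None of 35 mitosis genes was called, although 34 were positive and their median interaction was 0.36. The mean of these genes was 0.75, 0.16 and 0.05 relative to their average on the DEHP arrays at 72 h, against -0.06, -0.17 and 0.04 with corn oil, so 1 array was far above the other DEHP arrays. Mki67, the Ki-67 proliferation marker, measured 7.04, 5.75 and 5.66 with DEHP at 72 h, against 5.79, 5.48 and 5.81 with corn oil. Birc5, a chromosomal passenger protein, measured 7.74, 5.68 and 5.47 there, against 4.99, 4.55 and 5.46 with corn oil, and its interaction was 1.5 ± 0.50 (SE, adjusted p = 0.114). Of 18 p53 targets, Cdkn1a and Gadd45b were called lower (1.74% of all genes) and Bbc3, the cell death gene PUMA, higher (0.599%), with 0.92. Bbc3 was not called under median centring. Foxo3, a forkhead factor, was called lower at 2 h and not called at 72 h, with effects of 0.16 at 72 h (adjusted p = 0.542) and -0.93 at 2 h (adjusted p = 0.000649). Bbc3 lost the call in 9 of 12 fits without 1 array.

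In the lists of mitochondrial oxidation, omega-hydroxylation and lipid uptake and droplets, all holding known PPARα targets, called genes that kept their sign outnumbered those that reversed. Pdk4, a kinase that shuts pyruvate dehydrogenase, measured 7.63, 6.61 and 7.37 with DEHP at 72 h, against 6.44, 6.37 and 6.76 with corn oil. At 2 h Pdk4 measured 12.15, 12.02 and 12 with DEHP, against 7.41, 7.13 and 6.75 with corn oil. The DEHP arrays were far above the corn oil arrays at 2 h and overlapped them at 72 h. Its interaction was -4.28 ± 0.39 (SE, adjusted p = 2.91e-06). G0s2, an inhibitor of triglyceride lipase, had effects of 0.30 at 72 h (adjusted p = 0.68) and 2.39 at 2 h (adjusted p = 0.000556), Slc22a5, a carnitine carrier, 0.37 at 72 h (adjusted p = 0.272) and 1.66 at 2 h (adjusted p = 2.89e-05), and Plin2, a coat protein of lipid droplets, 0.13 at 72 h (adjusted p = 0.569) and 0.93 at 2 h (adjusted p = 0.000103). All of these were positive at both times, and their 72 h effects were not called. The call was lost for Slc22a5 without array 1 of DEHP 2 h. G0s2 lost the call in 6 of 12 fits without 1 array.

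Cyp4a31, a fatty acid omega-hydroxylase, had the opposite course and measured 11.43, 11.08 and 10.99 with DEHP at 72 h, against 8.11, 7.98 and 8.30 with corn oil. At 2 h Cyp4a31 measured 9.85, 9.52 and 9.92 with DEHP, against 8.31, 8.07 and 8.32 with corn oil. Its effect was 3.04 at 72 h (adjusted p = 3.36e-09) and 1.53 at 2 h (adjusted p = 0.000102), with an interaction of 1.51 ± 0.28 (SE, adjusted p = 0.00507); the Cyp4a genes of this cluster are close copies, so the probe set may detect more than 1 of them. Aldh3a2, a fatty aldehyde dehydrogenase, Retsat, a retinol saturase, and Ech1, an auxiliary enzyme of fatty acid oxidation, had interactions of 1.51, 1.75 and 0.89, with effects that were positive at both times. Of 23 genes of mitochondrial oxidation, 5 were called higher at 72 h than at 2 h and 3 lower (0.599% and 1.74% of all genes). The 5 were Acaa2, Acadl, Decr1, Eci1 and Hadha, and the 3 were Pdk4, Slc22a5 and Fgf21. Acaa2 and Hadha had opposite signs, with 2 h effects of -0.21 and -0.04 that were not called, and reversed in 6 and 7 of the 12 fits without 1 array. Of 30 genes of peroxisomal oxidation, 1 was called higher (Ech1) and 2 lower, against the same shares of all genes, and the median interaction was 0.05. Retsat lost the call in 5 of 12 fits without 1 array, and Aldh3a2 and Ech1 in 8.

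The 2 lower peroxisomal genes did have opposite signs. Pxmp4, a peroxisomal membrane protein, measured 10.57, 10.10 and 10.09 with DEHP at 72 h, against 10.27, 10.56 and 10.84 with corn oil. At 2 h Pxmp4 measured 11.66, 11.51 and 11.66 with DEHP, against 10.65, 10.81 and 10.41 with corn oil. The DEHP arrays were above the corn oil arrays at 2 h and overlapped them at 72 h, and the effect was -0.30 at 72 h (adjusted p = 0.244) and 0.99 at 2 h (adjusted p = 0.000649). Crot, carnitine octanoyltransferase, had effects of -0.01 at 72 h and 0.81 at 2 h, so at 72 h it was at the level of the controls, and 1 of its 2 probe sets had an interaction of the other sign. Ppara itself had an interaction of 0.13 (adjusted p = 0.872), Cpt1a, the carnitine palmitoyltransferase of mitochondrial entry, -0.23 (adjusted p = 0.527), and Cyp4a14 1.26 (adjusted p = 0.254). No probe set with 1 gene symbol was found for Cyp4a10, which is not analysed here.

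Among regulators of this response, the receptor PPARδ and the coactivator PGC-1α had effects of opposite sign, in opposite directions, but neither was called at 72 h. Ppard had effects of -0.49 at 72 h (adjusted p = 0.193) and 0.92 at 2 h (adjusted p = 0.0397). The other probe set of Ppard had 0.01 at 72 h and 0.17 at 2 h, with an interaction of -0.16. Ppargc1a, which codes for PGC-1α, measured 8.20, 8.29 and 8.28 with DEHP at 72 h, against 7.39, 7.53 and 7.79 with corn oil. At 2 h Ppargc1a measured 6.09, 6.76 and 5.74 with DEHP, against 6.79, 7.94 and 8.52 with corn oil. Its groups did not overlap at either time, and its effects of 0.69 at 72 h and -1.56 at 2 h were not called. The interaction was 2.24 ± 0.57 (SE, adjusted p = 0.0393), and the call was lost in 10 of the 12 fits without 1 array. Creb3l3, a hepatic membrane-bound factor, had effects of -0.04 at 72 h and 0.53 at 2 h and an interaction of -0.57 ± 0.13 (SE, adjusted p = 0.0203). The call was lost for Ppard without array 1 of DEHP 2 h or array 3 of DEHP 72 h. Creb3l3 lost the call in 6 of 12 fits without 1 array.

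Cyp7a1, Upp2 and Rdh16, single enzymes of bile acid, nucleoside and retinoid metabolism, were among the genes that reversed upwards. Cyp7a1, whose enzyme limits how fast bile acids are made, measured 11.64, 11.39 and 11.72 with DEHP at 72 h, against 10.38, 11.03 and 11.06 with corn oil. At 2 h Cyp7a1 measured 9.29, 8.53 and 8.66 with DEHP, against 9.69, 10.30 and 10.68 with corn oil. The DEHP arrays were the 3 highest at 72 h and the 3 lowest at 2 h. The effect was 0.76 at 72 h (adjusted p = 0.137) and -1.40 at 2 h (adjusted p = 0.0195), with an interaction of 2.16 ± 0.42 (SE, adjusted p = 0.00691). Cyp2c70, which makes muricholic acids in mice, was the only other of 17 bile acid genes called, and it was called lower. Among all genes 0.599% were called higher and 1.74% lower. The interaction of Cyp2c70 was -0.78 ± 0.16 (SE, adjusted p = 0.0142), and its call was lost without array 1 of DEHP 2 h (adjusted p = 0.0504). Rdh16, a retinol dehydrogenase, measured 10.64, 10.56 and 10.57 with DEHP at 72 h, against 8.60, 9.56 and 8.90 with corn oil. At 2 h Rdh16 measured 7.93, 8.77 and 8.94 with DEHP, against 9.80, 8.77 and 9.88 with corn oil. Its arrays separated at 72 h and overlapped at 2 h, with effects of 1.57 at 72 h (adjusted p = 0.00431) and -0.94 at 2 h (adjusted p = 0.207).

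Glutathione transferases, enzymes that conjugate electrophiles, were named after their values were seen, except Gsta2, Gstm4 and Gstt3. Only members called with opposite signs are given, so they do not stand for the family. Among all genes 0.539% were called as lower at 2 h and higher at 72 h. Gsta2 had effects of 1.75 at 72 h (adjusted p = 0.0107) and -0.58 at 2 h (adjusted p = 0.744) and an interaction of 2.33 ± 0.53 (SE, adjusted p = 0.02), which was lost without array 1 of DEHP 2 h (adjusted p = 0.0775). Gstm4, with effects of 0.85 at 72 h (adjusted p = 0.0116) and -0.62 at 2 h (adjusted p = 0.165), and Gstt3, with 0.68 at 72 h (adjusted p = 0.0467) and -0.57 at 2 h (adjusted p = 0.274), were called in all 12 fits without 1 array. Gstt2, Mgst3 and Gstt1 had interactions of 1.48, 1.33 and 0.69, and were called with opposite signs in 10, 6 and 4 of those fits. Several of these genes have near-identical relatives that their probe sets may also detect. Other enzymes that reversed upwards were Thnsl2, a threonine synthase-like protein, with effects of 0.65 at 72 h and -0.54 at 2 h, Ass1, argininosuccinate synthase of the urea cycle, with 0.75 at 72 h and -0.24 at 2 h, and Inmt, a methyltransferase of indole amines, with 0.75 at 72 h and -1.52 at 2 h. The interaction of Inmt, 2.26 ± 0.56 (SE, adjusted p = 0.0329), was lost in 9 of the 12 fits. The call was lost for Ass1 without array 1 of DEHP 2 h or array 3 of corn oil 72 h.

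Fatty acid synthesis genes pointed the same way with few calls. Of 25 measured, 1 was called higher at 72 h than at 2 h and none lower, against 0.599% and 1.74% of all genes. It was Me1, malic enzyme, with an interaction of 1.69 ± 0.40 (SE, adjusted p = 0.0257). That call was lost without array 1 of DEHP 2 h, array 1 or 3 of corn oil 2 h or array 2 or 3 of DEHP 72 h. The median effect of the 25 was 0.08 at 72 h and -0.36 at 2 h, with a median interaction of 0.49. Fasn, fatty acid synthase, measured 11.82, 11.95 and 12.68 with DEHP at 72 h, against 12.19, 12.55 and 11.47 with corn oil. At 2 h Fasn measured 10.90, 12.57 and 11.38 with DEHP, against 12.87, 12.76 and 13.10 with corn oil. The DEHP arrays were below the corn oil arrays at 2 h and overlapped them at 72 h, and the interaction of 1.37 ± 0.55 (SE) was not called (adjusted p = 0.202). Of 21 cholesterol synthesis genes, whose median interaction was 0.43, Insig2, a brake on that pathway, was the 1 called. It was called lower, as were 1.74% of all genes, with effects of -0.48 at 72 h and 0.59 at 2 h. Insig2 lost the call in 8 of 12 fits without 1 array.

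Hormones secreted by the liver were called in 1 direction. Of 17 measured, 5 were called lower and none higher (1.74% and 0.599% of all genes), with a median interaction of -0.48. Fgf21, a fasting hormone, measured 7.53, 7.5 and 7.37 with DEHP at 72 h, against 7.69, 8.51 and 8.20 with corn oil. At 2 h Fgf21 measured 9.38, 8.38 and 8.66 with DEHP, against 7.95, 7.97 and 7.66 with corn oil. The DEHP arrays were the 3 lowest at 72 h and the 3 highest at 2 h. The effect was -0.67 at 72 h (adjusted p = 0.075) and 0.95 at 2 h (adjusted p = 0.0323), with an interaction of -1.61 ± 0.30 (SE, adjusted p = 0.00561), called in all 12 fits without 1 array. Serpina12 (vaspin) and Tff3, a trefoil peptide, did not reverse and fell at 72 h, with effects of -2.31 at 72 h (adjusted p = 2.28e-07) and -0.17 at 2 h (adjusted p = 0.911) for Serpina12 and -2.72 at 72 h (adjusted p = 0.00207) and -0.14 at 2 h (adjusted p = 0.976) for Tff3. Enho (adropin) and Inhbc, an inhibin subunit, had interactions of -1.20 and -0.72, with 2 h effects of 0.06 and 0.09; Enho was called with opposite signs in 3 of the 12 fits and Inhbc in 11. Under median centring 4 of the 17 were called lower, and after quantile normalization 3. Tff3 lost the call in 8 of 12 fits without 1 array.

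Chaperone genes of the endoplasmic reticulum and of the heat shock response were called lower more often than higher, and most were not called. Of 25 endoplasmic reticulum genes, Calr, Dnajb11, Hsp90b1 and Hyou1 were called lower at 72 h than at 2 h, against 1.74% of all genes. The median effect was -0.56 at 72 h and -0.02 at 2 h. At 72 h alone 12 of the 25 were called lower, against 3.05% of all genes. Calr was called with opposite signs in 3 of 12 fits without 1 array. Dnajb11, a cochaperone of BiP, had effects of -0.73 at 72 h (adjusted p = 0.0135) and 0.28 at 2 h (adjusted p = 0.702) and Hyou1 -0.59 at 72 h (adjusted p = 0.00289) and 0.10 at 2 h (adjusted p = 0.904). Of 19 heat shock genes, Bag3, Dnaja1, Hspa1a and Hspb8 were called lower (1.74% of all genes), and Hspe1, the mitochondrial cochaperonin, higher (0.599%). At 72 h alone 11 of the 19 were called lower, against the same 3.05%. Hspa1a, an inducible HSP70 with a near-identical copy, measured 5.79, 5.76 and 5.52 with DEHP at 72 h, against 7.97, 7.75 and 8.05 with corn oil. At 2 h Hspa1a measured 5.05, 6.19 and 5.53 with DEHP, against 5.6, 6.32 and 5.99 with corn oil. The corn oil arrays at 72 h were above all others, so here the interaction of -1.85 ± 0.46 (SE, adjusted p = 0.032) came with a change of 1.95 in corn oil livers and 0.10 in DEHP livers. Hspe1 was called with opposite signs in 2 of 12 fits without 1 array and was not called under median centring, and 3 of the 19 were called lower after quantile normalization. The call was lost for Hyou1 without array 1 of DEHP 2 h or array 1 of corn oil 2 h. Bag3 lost the call in 3 of 12 fits without 1 array, and Dnajb11 in 5, and Hsp90b1 in 8, and Hspa1a and Hspb8 in 9.

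Of 27 immediate-early genes, Jun, Sgk1 and Dusp6 were called lower at 72 h than at 2 h (1.74% of all genes), and 2 of the 27 after quantile normalization. Jun measured 7.91, 7.59 and 8.00 with DEHP at 72 h, against 9.85, 8.13 and 8.28 with corn oil. At 2 h Jun measured 9.45, 8.97 and 8.81 with DEHP, against 7.32, 8.35 and 7.04 with corn oil. The DEHP arrays lay below the corn oil arrays at 72 h and above them at 2 h, without overlap. Its effect was -0.92 at 72 h (adjusted p = 0.132) and 1.51 at 2 h (adjusted p = 0.0393), with an interaction of -2.43 ± 0.50 (SE, adjusted p = 0.0113), which was -1.70 with an adjusted p of 0.0552 without array 1 of corn oil 72 h and array 1 of DEHP 2 h. Sgk1, a serum- and glucocorticoid-regulated kinase, had effects of -0.79 at 72 h (adjusted p = 0.0128) and 0.31 at 2 h (adjusted p = 0.687), and Dusp6, a MAP kinase phosphatase, -1.72 at 72 h (adjusted p = 0.00341) and -0.07 at 2 h (adjusted p = 0.981). The call was lost for Sgk1 without array 1 of DEHP 2 h or array 3 of DEHP 72 h. Dusp6 lost the call in 11 of 12 fits without 1 array.

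Macrophage markers had lower summed signals with DEHP at 72 h. Of 17 macrophage markers none was called in the interaction, but 16 were negative, with a median of -0.65, and 6 were called lower at 72 h alone (3.05% of all genes). Their summed signal ranged from 6311 to 7734 in DEHP livers at 72 h, against 9085 to 12559 in corn oil livers, and from 7969 to 11113 in DEHP livers at 2 h, against 8602 to 9846 in corn oil livers. The groups did not overlap at 72 h and overlapped at 2 h. In bulk tissue fewer cells of a type and less RNA per cell cannot be told apart, and the part of these cells in the other results was not tested. Of 10 hepatocyte markers 1 was called, Hnf4a, a nuclear receptor of hepatocyte identity, with effects of -0.46 at 72 h (adjusted p = 0.0221) and 0.17 at 2 h (adjusted p = 0.737); the median interaction of the 10 was 0.01, and the call of Hnf4a was lost in 7 of the 12 fits. Lymphocyte, endothelial, stellate cell, bile duct and adipocyte markers had no call in the interaction, but several of their sums did not overlap at 72 h. Endothelial markers summed to 4833 to 5763 in DEHP livers at 72 h, against 6276 to 7169 in corn oil livers, and 15 of the 16 had negative interactions. For single genes, the DEHP and corn oil arrays did not overlap in 28.2% of all genes at 72 h and in 11.4% at 2 h. Sums of stellate cell, hepatocyte and red blood cell markers were also lower in DEHP livers at 72 h without overlap. The mean log2 signal of the stellate cell markers, relative to their average, did overlap at 72 h. It was -0.042, -0.090 and 0.069 in DEHP livers, against 0.010, 0.017 and 0.186 in corn oil livers. At 2 h stellate cell sums were lower too, 4406 to 5718 in DEHP livers against 5980 to 6494 in corn oil livers. Hepatocyte sums at 2 h were 141319 to 149075 in DEHP livers against 149196 to 154117 in corn oil livers, again without overlap. The mean log2 signal of the hepatocyte markers overlapped at 2 h. It was -0.031, 0.044 and 0.035 in DEHP livers, against 0.037, 0.065 and 0.089 in corn oil livers. Sums of lymphocyte markers at 72 h, 1887 to 2178 in DEHP livers against 1574 to 1829 in corn oil livers, were higher without overlap. So were those of adipocyte markers at 72 h, 946 to 1293 in DEHP livers against 729 to 877 in corn oil livers. The mean log2 signals of these lists, relative to their average, overlapped at 72 h. For lymphocyte markers they were 0.095, -0.002 and 0.094 in DEHP livers, against 0.064, -0.014 and -0.043 in corn oil livers. For adipocyte markers they were 0.465, -0.038 and 0.230 in DEHP livers, against 0.039, -0.065 and -0.117 in corn oil livers. The part of these cells was not tested either.

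**Figure D5:**
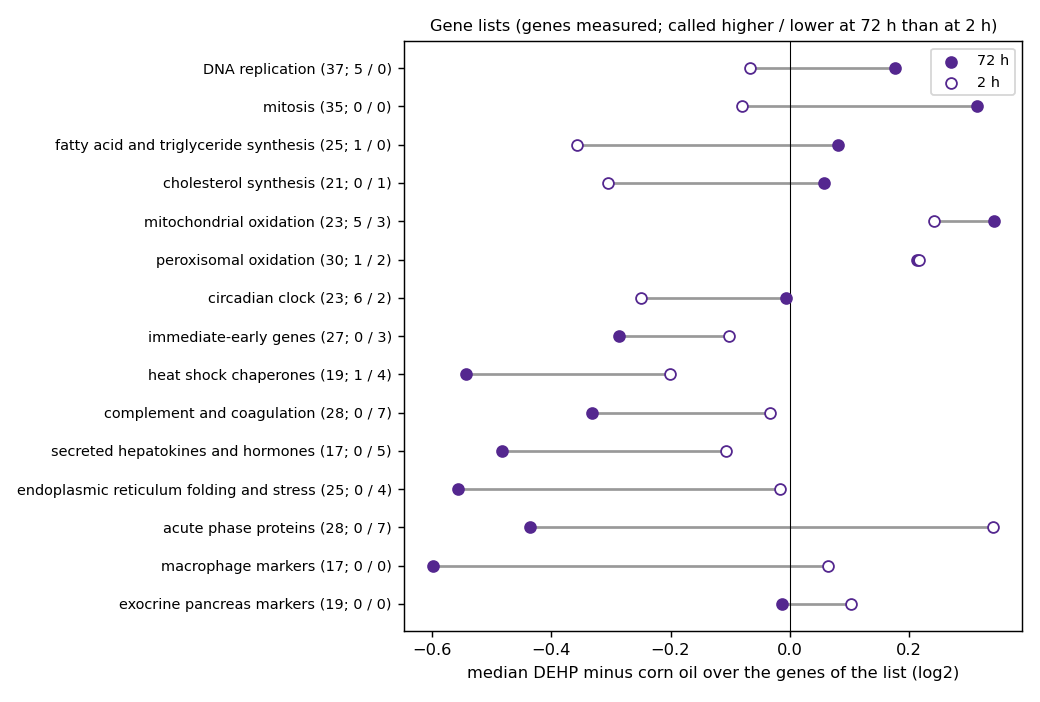
Median DEHP effect (log2) over the measured genes of 15 lists at 72 h (filled) and at 2 h (open), with the number measured and the numbers called higher and lower in the interaction beside each name. Acute phase proteins (-0.44 at 72 h and 0.34 at 2 h) and fatty acid synthesis genes (0.08 and -0.36) cross 0, and peroxisomal oxidation stays in place (0.21 and 0.22); after quantile normalization the circadian clock median at 72 h was 0.01 in place of -0.01 and the exocrine pancreas median at 72 h 0.04 in place of -0.01, and after median centring the endoplasmic reticulum median at 2 h was 0.01 in place of -0.02.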

How the data were processed

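RNA from mouse liver was measured on 24 Affymetrix arrays, and 12 of them, of 2 h and 72 h, enter the interaction. The deposited values are log2 signals, made by the authors with RMA per the submitters' processing notes (version not given in the sources used here). They were used as deposited. Of 45101 probe sets, 35890 had a gene in the platform annotation, 34958 a single symbol and 932 several, which were left out; the probe set with the highest mean over 24 arrays stood for each of 18194 genes, 9012 of which had several. Group means were fitted in R 4.3.3 with limma 3.58.1 over all 8 groups (16 residual and 6.21 prior degrees of freedom), and p-values were adjusted by Benjamini-Hochberg over all genes. The script was tested on simulated data.

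The genes named were the 12 largest called interactions of each sign, the 12 reversing genes of each direction with the largest smaller effect, reversing genes called at both times, up to 3 called members of each list and a set of fixed genes, of which Cyp4a10 had no single-symbol probe set. Further called list members are named where a count is small, and they were chosen after their values were seen. The members and the lists were chosen with earlier results of these data known. Alternatives covered the replicate block, filters, probe sets, variance models, scalings, thresholds and single arrays left out.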

Additional observations from a re-analysis of the deposited data

Results flagged for a closer look

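Each value in these paragraphs is an interaction, the DEHP effect at 72 h minus that at 2 h on the log2 scale, that was past an adjusted p of 0.05 in the limma test of that difference. The effect thus differed between the 2 times in 425 genes, and those taken by the naming rule are given by function. No formal test for a single distant array was made in groups of 3. The acute phase and complement group had -8.16 for Saa2, -8.13 for Lcn2, -6.14 for Saa1, -5.07 for Saa3, -2.35 for Fgl1, -1.71 for Lrg1, -0.95 for C9, -0.94 for Cfb and -0.90 for C8a. Fgl1 codes for a liver-secreted fibrinogen-like protein and Lrg1 for a leucine-rich acute phase glycoprotein. Lrg1 measured 12.59, 12.32 and 12.30 with DEHP at 72 h, against 13.79, 12.97 and 12.96 with corn oil. At 2 h Lrg1 measured 13.95, 13.19 and 13.72 with DEHP, against 12.67, 12.85 and 12.72 with corn oil, without overlap at either time.

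Growth, death and kinase signalling genes had negative interactions of -2.61 for Cdkn1a, -2.43 for Jun, -2.25 for Gadd45b, -1.64 for Dusp6, -1.09 for Sgk1, -0.91 for Casp8 and -0.58 for Stat5a, and positive ones of 1.37 for Mcm10, 1.29 for Spc24, 1.09 for Foxo3, 0.95 for Tk1, 0.95 for Bmf, 0.92 for Bbc3 and 0.89 for Mcm6. Other probe sets of Bmf had interactions of -0.38, the other sign, and 0.22. Casp8, an initiator caspase, had effects of -0.26 at 72 h (adjusted p = 0.203) and 0.65 at 2 h (adjusted p = 0.00571). Clock genes had 4.16 for Dbp, 1.15 for Nr1d1 and -1.25 for Arntl. Chaperone genes had -3.17 for Dnajc12, -1.85 for Hspa1a, -1.02 for Bag3, -1.01 for Dnajb11, -0.82 for Hspb8, -0.69 for Hyou1 and -0.60 for Hsp90b1.

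Genes of fatty acid and glucose metabolism had negative interactions of -4.28 for Pdk4, -2.09 for G0s2, -1.41 for Ppard, -1.30 for Slc22a5, -1.30 for Pxmp4, -1.07 for Insig2, -1.06 for Slc16a1, -0.98 for Plin4, -0.83 for Crot and -0.57 for Creb3l3, and positive ones of 2.24 for Ppargc1a, 1.82 for Pltp, 1.75 for Retsat, 1.69 for Me1, 1.51 for Cyp4a31, 1.51 for Aldh3a2, 0.92 for Fitm1, 0.89 for Ech1 and 0.70 for Pdk2. Slc16a1, the monocarboxylate carrier MCT1, had effects of -0.33 at 72 h and 0.73 at 2 h, and Pltp, the phospholipid transfer protein, 1.37 at 72 h and -0.45 at 2 h. Bile acid, retinoid, drug and amino acid metabolism had 2.51 for Rdh16, 2.33 for Gsta2, 2.26 for Inmt, 2.16 for Cyp7a1, 1.46 for Gstm4, 1.25 for Gstt3, 1.21 for Ces2a, 1.20 for Thnsl2, 0.99 for Ass1, -0.78 for Cyp2c70 and -0.64 for Cbs. Secreted hormones had -2.58 for Tff3, -2.14 for Serpina12 and -1.61 for Fgf21. The other genes had -3.44 for Atp11a, -1.36 for Slc45a3, -1.20 for Tgoln1, -1.16 for Rai14, -0.92 for Tecpr2, -0.76 for Lnx2, -0.63 for Hnf4a, -0.50 for Bpgm, 1.23 for Fam13a, 2.34 for Upp2 and 1.14 for Krt23. Leaving out 1 array lost the call for Ces2a without array 1 of DEHP 2 h or array 2 of DEHP 72 h, and for Fitm1 without array 1 of DEHP 2 h or array 3 of DEHP 72 h, and for Plin4 without array 3 of DEHP 72 h. Fgl1 lost the call in 5 of 12 fits without 1 array, and Stat5a in 8, and Atp11a and Dnajc12 in 9, and Bpgm in 10.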

How the results depend on the processing

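With array weights 758 genes were called, 699 reversed and 2749 were called at 72 h. At an adjusted p under 0.01 the counts were 98 called and 86 reversing, with 0 called at both times in limma, 67 past an unadjusted p of 0.05 at both times and 23 at least 0.5 at both, and 62, 346, 29 and 176 genes were called at 2, 8, 24 and 72 h. With a change of at least 1 they were 139, 115 and 73 past an unadjusted p of 0.05 at both times, and 37, 65, 18 and 60 at 2, 8, 24 and 72 h. Without array 1 of corn oil 72 h and array 1 of DEHP 2 h they were 181, 163, 4 called at both times, 83 and 22, with 72 called at 2 h. With the exocrine pancreas mean as a covariate 21 reversing genes were called at both times. Without 1 array at a time, 142 to 604 genes were called, 124 to 560 reversed, 2 to 21 did so with calls at both times, 75 to 316 with an unadjusted p under 0.05 at both and 22 to 74 with at least 0.5 at both, and 65 to 239 and 247 to 1095 genes were called at 2 h and 72 h. Calls moved by over 1.5 times without array 1 of DEHP 2 h (142), array 1 of corn oil 2 h (168), array 3 of corn oil 2 h (270), array 2 of DEHP 72 h (248) and array 3 of DEHP 72 h (172). A block of replicate numbers gave 397 called and 358 reversing, 330 of them shared; the numbers share no deviations (correlations of -0.18 to 0.09) and do not pair the arrays. Of the 385 reversing genes, 298 were called and reversing after quantile normalization, where 45.7% of 433 calls were higher, against 25.6% of 425. Signs turned in 3 uncalled genes: Ccnd1 (0.09) had -0.0164 with the mean of probe sets, -0.0533 with array weights, -0.19 without both arrays and -0.11 to 0.36 without 1 array; Ppara (0.13) had -0.0749 with the mean of probe sets and -0.11 to 0.28; Srebf1 (0.05) had -0.16 without both arrays and -0.21 to 0.33. The causes were not tested. Over the named genes, 2161 values kept direction and call, 375 lost the call, 19 gained it and 14 changed sign. Dim probe sets and 3 arrays a group limit what can be called.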
